A study of Homo sapiens with 11 samples.

Results

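The genes described here are those of the ubiquitin-specific proteases (USPs), taken as every deposited gene symbol made of USP and a number, with or without a final X. This pattern matched 52 of the 31325 gene symbols measured, USP3 and USP22 among them. Expression was measured on 11 Illumina HumanHT-12 v4 arrays, which read biotin-labelled cRNA with probes carried on beads. MDA-MB-231 is a human breast cancer cell line and SKOV3 a human ovarian cancer cell line, and cells of both were transfected with miR-365a-3p or with a control miRNA. The 4 groups were MDA-MB-231 with miR-365a-3p (3 arrays), MDA-MB-231 with control miRNA (3 arrays), SKOV3 with miR-365a-3p (3 arrays) and SKOV3 with control miRNA (2 arrays). The labels place all arrays at 48 h after transfection, whereas the series text has 24 h. The paper calls the ovarian line SKOV3.ip1. No label says that replicates were separate cultures, so the p-values measure only the spread between these samples. In bulk RNA, fewer cells that express a gene and less of its RNA per cell cannot be told apart.

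Ubiquitin is a small protein that is joined to other proteins and marks them for degradation by the proteasome, for sorting at membranes or for a change of activity. Deubiquitinases cut it off again, and the USPs, cysteine proteases with a common catalytic fold, are the largest family of them in human cells. Members remove ubiquitin from histones, from p53 and its ligase MDM2, from DNA repair proteins and from receptors on endosomes, and others recycle free ubiquitin chains. MicroRNAs pair through the seed, bases 2 to 8 from the 5′ end, with sites in mRNAs, whose level and translation then fall.

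The mature sequence of the miRNA named in the labels is shown because its seed sets which mRNA sites it can pair with. The capitals mark the seed, and the sequence is that of RefSeq on GRCh38.p14, where the mature miRNA lies at chr16:14309340-14309361 on the plus strand.

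hsa-miR-365a-3p: uAAUGCCCcuaaaaauccuuau

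It has 22 bases and is the same as the miR-365 sequence of the study's mimic library. The mature miR-365b-3p, at chr17:31575478-31575499 on the plus strand, is identical, and among the mature miRNAs of the RefSeq table these 2 alone had this seed. The letters of an mRNA that pair with the seed are GGGCATT. No transcript sequences were used here, so which USP mRNAs hold such a site was not tested.

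Signals are given on the deposited log2 scale after quantile normalization of the 11 arrays, where 1 unit is a doubling if the authors took plain log2, which the sources used here do not state. A gene is said to have fallen or risen where limma, fitted to all 31325 genes, gave a Benjamini-Hochberg adjusted p under 0.05. The lowest 60% of all values lay below 7.43 and are called the floor band, close to the lowest signals of the arrays, where a fall cannot be measured in full. All 4 group means lay in this band for 15 USP genes (28.8%), against 52.1% of all genes, and the other 37 stood above it in at least 1 group. Levels of different genes come from different probes and are not compared. Probes of near-identical copies may share signal, which makes USP18 and USP41, USP6 and USP32, USP12 and USP46, and USP22, USP27X and USP51 uncertain. The symbols USP17 and USP41 are older names, and the other 50 are current.

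Several facts of the whole series bear on every value below. HDAC4, a known target of miR-365a-3p, fell by 1.08 in the MDA-MB-231 line (adjusted p = 9.16e-05) and by 0.75 in the SKOV3 line (adjusted p = 0.00208), with the miR-365a-3p means in the floor band. The 75th percentile of the deposited values moved with the treatment. For MDA-MB-231 it lay between 7.56 and 7.65 with miR-365a-3p and between 7.86 and 7.93 with control miRNA. For SKOV3 it lay between 7.67 and 7.80 with miR-365a-3p and between 7.98 and 8.04 with control miRNA. Some gene families also moved apart, in a choice made with earlier results of these data known and without a test of protein size. Only genes with a mean signal above 8 over all arrays were taken, so some could enter through their control arrays alone. The median difference was 0.63 in MDA-MB-231 and 0.52 in SKOV3 over 48 genes of the respiratory chain, whose proteins are small. It was 0.29 and 0.23 over 76 genes of ribosomal proteins, which are small too. Over 8 genes of myosin and dynein heavy chains and laminins, whose proteins are very large, it was -1.87 and -1.74. The array medians of these 8 genes lay between 9.85 and 10.09 in MDA-MB-231 controls and between 7.75 and 7.83 with miR-365a-3p. The part of these shifts in the results on the USP genes was not tested. Of the markers of the cell lines, ERBB2, PAX8 and EPCAM were higher in SKOV3 controls than in MDA-MB-231 controls, and ZEB1 was higher in MDA-MB-231 controls. VIM stood at 13.79 and 13.70 with no difference called, and TWIST1, listed for MDA-MB-231 cells, was instead higher in SKOV3 controls (8.08 against 7.36). Some of these markers also moved with miR-365a-3p, since ERBB2 fell by 1.57 (adjusted p = 0.00842) and PAX8 by 0.70 (adjusted p = 4.29e-06) in SKOV3 cells, and EPCAM rose by 0.81 in MDA-MB-231 cells (adjusted p = 0.00678). Their part in the results on the USP genes was not tested.

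More USP genes fell than rose with miR-365a-3p. In MDA-MB-231 cells, 22 of the 52 fell and 6 rose, where 11.7% of all genes fell and 14.4% rose. In SKOV3 cells, 14 fell and 1 rose, where 7.11% of all genes fell and 7.25% rose. The falls were 42.3% of the USP genes in MDA-MB-231 and 26.9% in SKOV3. The median difference over the 52 genes was -0.09 in MDA-MB-231 and -0.01 in SKOV3, against 0.01 over all genes in either line. Thus many members moved little, and the falls made up one side of the spread. Of the genes with a mean signal above the median of all genes, 23.3% fell in MDA-MB-231 and 14.9% in SKOV3, and of the 40 USP genes among these 22 and 13 fell.

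Both cell lines shared 13 falls, of USP3, USP7, USP9X, USP10, USP11, USP14, USP21, USP24, USP34, USP37, USP42, USP46 and USP49, where 5.39% of all genes fell in both. USP44 alone rose in both, where 5.76% of all genes did. Another 9 genes fell past the threshold in MDA-MB-231 cells only and 5 rose there only, USP32 fell past it in SKOV3 cells only, and no gene was called in opposite directions. A call in 1 line only does not show that the lines differ, and the difference itself was called for USP13 alone, where 2.54% of all genes had one. Every miR-365a-3p array lay below every control array in both lines for 21 USP genes, against 10.3% of all genes, and above for 5, against 13.3% of all genes. In the plot of the responses, most called genes lay in the lower left corner, where both lines were lower.

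**Figure D1:**
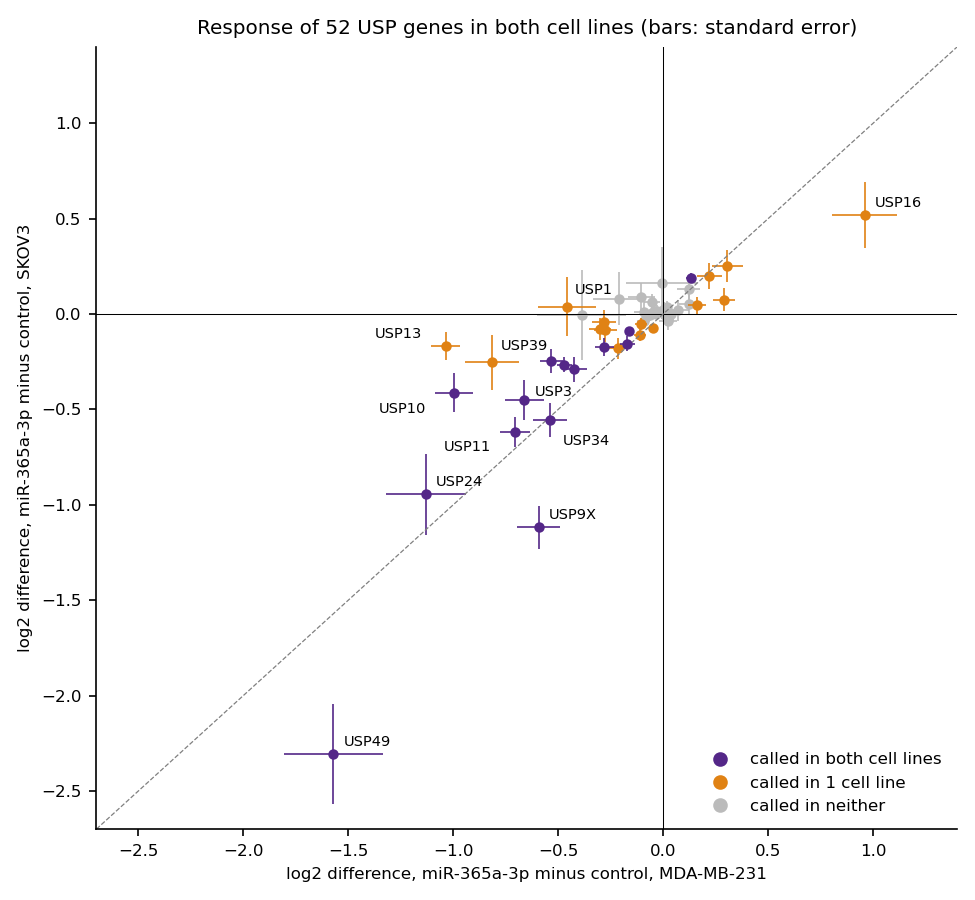
Log2 difference of each of the 52 USP genes between miR-365a-3p and control arrays in MDA-MB-231 cells (horizontal axis) and SKOV3 cells (vertical axis), with standard errors from limma as bars and the line of equal response dashed. Purple points were called in both cell lines, orange points in 1 and grey points in neither, and USP49 lies farthest down, at -1.57 and -2.31.

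Scaling of the arrays moved the balance of falls and rises. Of all called genes, the share that fell was 44.8% in MDA-MB-231 and 49.5% in SKOV3 after quantile normalization, 48.9% and 58.6% after cyclic loess, 59.1% and 67.7% with each array centred on its median, and 71.2% and 78.6% on the values as deposited. Of the USP genes, 21 fell and 4 rose after cyclic loess in MDA-MB-231 cells, 24 fell and 1 rose after centring, and 27 fell and 1 rose on the values as deposited. The counts for SKOV3 cells were 16 and 1, 19 and 0, and 20 and 0. Of all genes, 11.9% fell and 12.4% rose in MDA-MB-231 cells after cyclic loess, 15.6% and 10.8% after centring, and 17.9% and 7.26% as deposited. These shares were 8.92% and 6.3%, 11.6% and 5.52%, and 14% and 3.83% in SKOV3 cells. USP falls were thus called in greater number on the scalings without quantile normalization or loess, as were falls over all genes. On both of them 5 of the 6 USP rises in MDA-MB-231 cells were lost, and fewer of all genes rose. Beside the counts of 0 rises in SKOV3 cells by limma, 0 genes were higher at an unadjusted p under 0.05 on the values as deposited and 1 after centring.

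The SKOV3 calls also rested on few arrays. The 14 falls became fewer without either control array, where a single SKOV3 control array was left, and falls over all genes were fewer too. The 14 falls became 7 without miR-365a-3p replicate 1 and 7 without replicate 3. These were USP9X, USP11, USP14, USP24, USP34 and USP49 in both cases, with USP42 in the former and USP21 in the latter. Over all genes, the share that fell went from 7.11% to 6.28% and 6.27% there. The falls in MDA-MB-231 cells numbered between 19 and 23 when any single array was left out, where 9.56% to 12.5% of all genes fell. The 6 rises there became 3 without control replicate 3, those of USP16, USP41 and USP44, where the share of all genes went from 14.4% to 11.2%. The falls of USP9X, USP11, USP14, USP34 and USP49 were called in both cell lines in all 19 alternative fits.

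Histones H2A and H2B carry single ubiquitins that accompany gene silencing, transcription and the response to DNA breaks. Of the 9 USPs listed for these histones, 5 fell and 2 rose in MDA-MB-231 cells (against 11.7% and 14.4% of all genes), and 4 fell and 1 rose in SKOV3 cells (against 7.11% and 7.25% of all genes). These shares of all genes are the background of the other role lists too, which were all chosen with earlier results known. The median difference of the list was -0.11 and -0.05. USP3 and USP22 are among the genes that the study showed from these arrays, so their direction is not independent evidence. USP49, which removes ubiquitin from H2B and bears on splicing, had the largest fall of all 52 genes in either line. It read 10.45, 10.69 and 11.31 on the control arrays of MDA-MB-231 cells and 9.41, 9.07 and 9.27 with miR-365a-3p. In SKOV3 cells, it read 11.08 and 11.66 on the control arrays and 8.83, 9.17 and 9.18 with miR-365a-3p. All 6 miR-365a-3p arrays lay more than 1 unit below the lowest control array of their line, and the treated levels of the lines overlapped. The difference was -1.57 in MDA-MB-231 cells (standard error 0.23, adjusted p = 0.00131), 2.97-fold lower, and -2.31 in SKOV3 cells (standard error 0.26, adjusted p = 0.000706), 4.95-fold lower.

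USP3, which acts on H2A and on H2AX at DNA breaks, fell in both lines. Its control arrays read 9.36, 9.33 and 9.65 in MDA-MB-231 cells and 9.61 and 9.43 in SKOV3 cells. With miR-365a-3p it read 8.64, 8.84 and 8.86 in MDA-MB-231 cells and 9.08, 9.12 and 9.01 in SKOV3 cells. The groups did not overlap in either line, and the treated SKOV3 arrays stayed above the treated MDA-MB-231 arrays. USP3 fell by 0.66 in MDA-MB-231 cells (standard error 0.095, adjusted p = 0.00109) and by 0.45 in SKOV3 cells (standard error 0.11, adjusted p = 0.0225). The call in SKOV3 cells was lost in 6 of the 19 alternative fits (adjusted p up to 0.185), among them those without either control array. The difference between the lines was not called (adjusted p = 0.639).

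USP7 removes ubiquitin from MDM2 and p53 and, with the enzyme GMPS, from H2B. Its control arrays read 8.21, 7.999 and 8.18 in MDA-MB-231 cells and 7.93 and 7.87 in SKOV3 cells. All 6 treated arrays lay between 7.55 and 7.68, below every control array. USP7 fell by 0.53 (adjusted p = 0.000223) and by 0.25 (adjusted p = 0.0315), and the SKOV3 call was lost in 6 of 19 fits (adjusted p up to 0.204). GMPS itself fell in both lines, by 1.31 (adjusted p = 0.000214) and by 0.92 (adjusted p = 0.00452). USP21, an H2A deubiquitinase, fell by 0.17 (adjusted p = 0.00589) and by 0.16 (adjusted p = 0.0277), with the SKOV3 call lost in 7 of 19 fits.

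USP22 is the deubiquitinase of the SAGA coactivator complex, in which ATXN7L3 and ENY2 activate it, and USP27X and USP51 use the same partners. The signal of USP22 was close to the floor band in all groups. It read 7.39, 7.44 and 7.503 on the MDA-MB-231 control arrays and 7.34, 7.33 and 7.33 with miR-365a-3p, and 7.40 and 7.42 against 7.33, 7.37 and 7.37 in SKOV3 cells. The groups did not overlap in either line, but 3 of the 4 group means lay in the floor band. The fall of 0.11 was called in MDA-MB-231 cells (adjusted p = 0.0205), where it was lost in 6 of 19 fits, and the difference of -0.05 in SKOV3 cells was not (adjusted p = 0.375). USP27X and USP51 lay in the floor band in all 4 groups and were not called. ENY2 rose in both lines, by 0.70 (adjusted p = 0.0227) and by 0.83 (adjusted p = 0.0297), each lost in 5 of 19 fits. ATXN7L3 had differences of -0.14 and -0.02 that were not called, and ATXN7 was in the floor band.

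USP16 went the other way. It removes ubiquitin from H2A before mitosis and had the largest positive difference of the 52 genes. Its control arrays read 9.02, 8.63 and 8.62 in MDA-MB-231 cells and 8.69 and 8.58 in SKOV3 cells. With miR-365a-3p it read 9.93, 9.65 and 9.58 in MDA-MB-231 cells and 9.44, 9.10 and 8.93 in SKOV3 cells. All treated arrays of a line lay above its control arrays, and replicate 1 was the highest treated array in both. USP16 rose by 0.96 in MDA-MB-231 cells (standard error 0.16, adjusted p = 0.00201), 1.95-fold, a call kept in all 19 alternative fits. The difference of 0.52 in SKOV3 cells was not called (standard error 0.17, adjusted p = 0.0893). USP44, which acts on H2B and in the mitotic checkpoint, rose by 0.13 (adjusted p = 0.00362) and by 0.19 (adjusted p = 0.00227), from 7.41 to 7.54 and from 7.48 to 7.66. These rises were close to the floor band, and on the values as deposited they shrank to 0.02 and 0.05 and were not called.

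**Figure D2:**
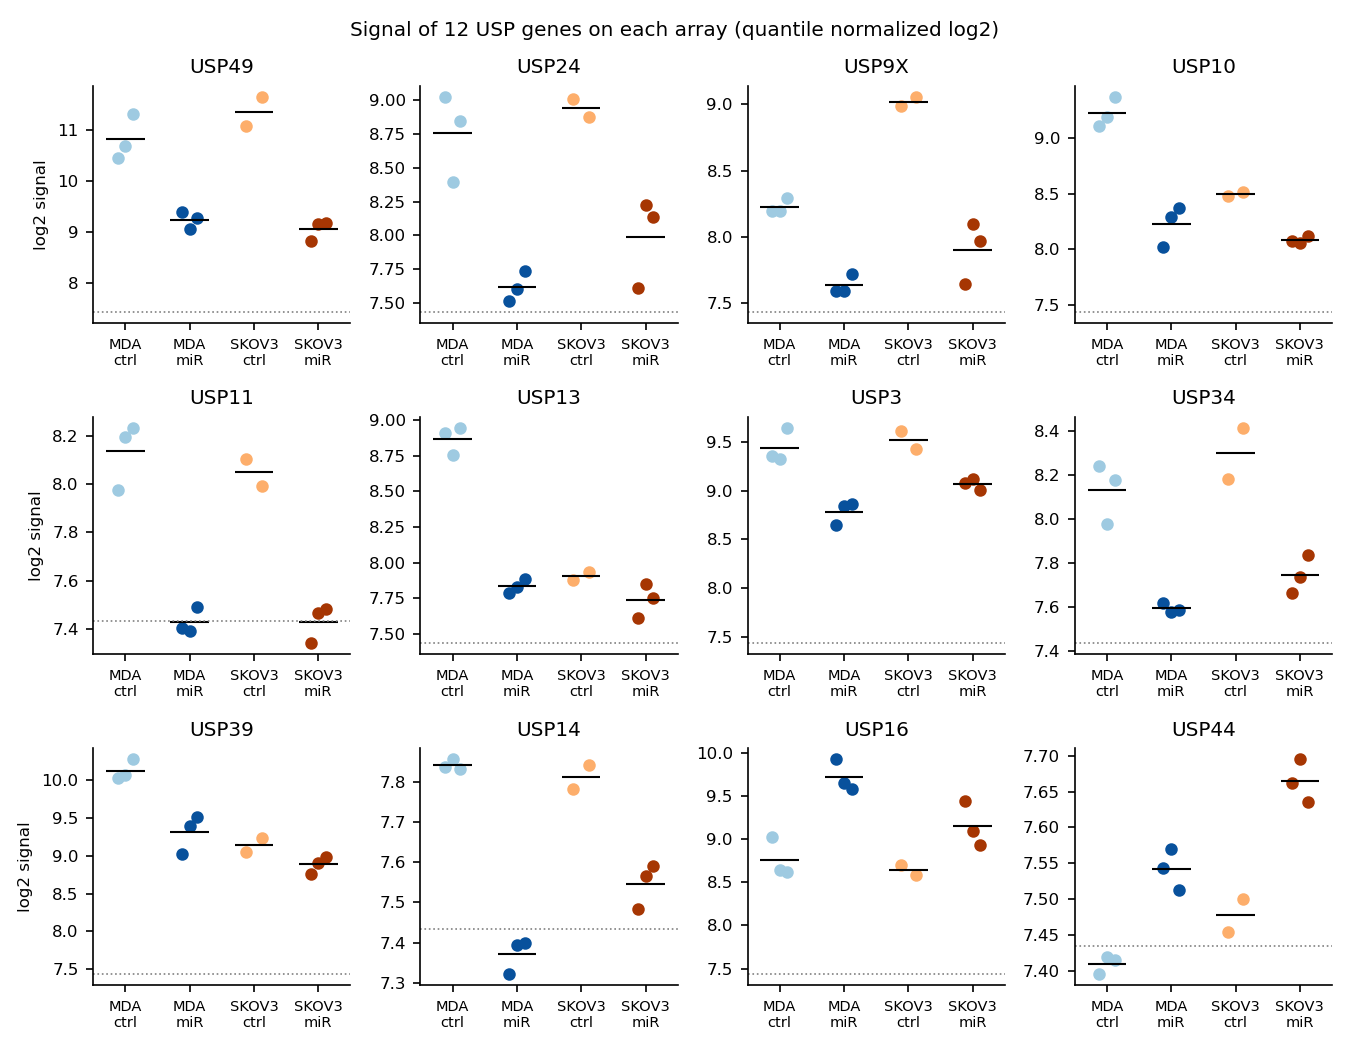
Log2 signal after quantile normalization of 12 USP genes on each of the 11 arrays, with 1 point per array, group means as black lines and the top of the floor band (7.43) dotted. The vertical axes differ between genes and do not start at 0, and the first 10 genes are lower with miR-365a-3p (dark points) than with control miRNA (light points) in both lines, while USP16 and USP44 are higher.

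For DNA repair, p53 and the cell cycle, 9 USP genes were listed. Of these, 6 fell and 0 rose in MDA-MB-231 cells (against 11.7% and 14.4% of all genes), and 4 fell and 0 rose in SKOV3 cells (against 7.11% and 7.25% of all genes), by limma. USP10, which stabilizes p53 in the cytoplasm, read 9.11, 9.19 and 9.37 on the MDA-MB-231 control arrays and 8.02, 8.29 and 8.38 with miR-365a-3p. In SKOV3 cells, it read 8.48 and 8.52 on the control arrays and 8.07, 8.06 and 8.12 with miR-365a-3p. The controls of the lines were apart by 0.73 (adjusted p = 0.00135), whereas the treated arrays of both lay close to each other. USP10 fell by 1.00 (standard error 0.092, adjusted p = 0.00012) and by 0.41 (standard error 0.10, adjusted p = 0.0295), and the difference between the lines, -0.58, was not called (adjusted p = 0.0761). The SKOV3 call was lost in 5 of 19 fits.

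USP11, which takes part in the repair of DNA breaks, read 7.98, 8.20 and 8.23 on the MDA-MB-231 control arrays and 8.10 and 7.99 on those of SKOV3. With miR-365a-3p, it read 7.40, 7.39 and 7.49 and 7.34, 7.47 and 7.48. The treated means of both lines lay in the floor band, so the falls of 0.71 (adjusted p = 0.00018) and 0.62 (adjusted p = 0.00131) were limited by it. USP42, which acts on p53, fell by 0.42 (adjusted p = 0.000971) and by 0.29 (adjusted p = 0.0204). USP37, which stabilizes cyclin A, fell by 0.28 (adjusted p = 0.00171) and by 0.17 (adjusted p = 0.0489). The SKOV3 calls of USP42 and USP37 were lost in 5 and 12 of 19 fits.

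USP1 and USP47 were called in MDA-MB-231 cells only. USP1, which with WDR48 clears ubiquitin from FANCD2 and PCNA, read 9.13, 8.58 and 8.82 on the MDA-MB-231 control arrays and 8.19, 8.44 and 8.53 with miR-365a-3p. In SKOV3 cells the groups overlapped, with 8.35 and 8.41 on control arrays and 8.38, 8.55 and 8.33 with miR-365a-3p. The fall of 0.46 in MDA-MB-231 cells (adjusted p = 0.0387) was lost in 11 of 19 fits, among them those without 8 of the 11 arrays, each left out alone, and the difference between the lines was not called (adjusted p = 0.356). WDR48, its activator, was not called in either line, with -0.27 and 0.08. USP47, which acts on DNA polymerase beta, fell by 0.28 in MDA-MB-231 cells (adjusted p = 0.00703), to a mean in the floor band. USP2, USP28 and USP45 lay in the floor band in all 4 groups.

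Among the 8 genes listed for endosomes and receptors, 3 fell and 2 rose in MDA-MB-231 cells and 3 fell in SKOV3 cells. USP9X, an X-linked enzyme that acts on endocytic adaptors and on the survival protein MCL1, read 8.20, 8.20 and 8.29 on the MDA-MB-231 control arrays and 8.99 and 9.06 on those of SKOV3. With miR-365a-3p, it read 7.60, 7.60 and 7.72 in MDA-MB-231 cells and 7.64, 8.10 and 7.97 in SKOV3 cells. The SKOV3 controls stood apart from all other arrays, and the treated groups overlapped. USP9X fell by 0.59 (standard error 0.10, adjusted p = 0.00257) and by 1.12 (standard error 0.11, adjusted p = 0.000401). The difference between the lines was 0.52 (95% confidence interval 0.18 to 0.87) and was not called (adjusted p = 0.149).

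The other members of this list moved by less. USP6, a gene of apes and humans that arose in part from USP32, fell by 0.30 in MDA-MB-231 cells (adjusted p = 0.00263), and USP32, a membrane-bound enzyme of the Golgi, by 0.07 in SKOV3 cells (adjusted p = 0.0299) within the floor band, a call lost in 8 of 18 fits. USP46 fell by 0.16 (adjusted p = 0.000501) and by 0.09 (adjusted p = 0.0303), while its close relative USP12 rose by 0.22 in MDA-MB-231 cells (adjusted p = 0.0269) and had 0.20 in SKOV3 cells (adjusted p = 0.0957). The SKOV3 call of USP46 was lost in 10 of 19 fits (adjusted p up to 0.192). Its treated means, 7.36 and 7.35, lay in the floor band, and its SKOV3 control mean of 7.44 stood at the edge of that band. Both USP46 and USP12 work with WDR48 and WDR20. USP33, which recycles receptors, rose by 0.16 in MDA-MB-231 cells (adjusted p = 0.0189). On the values as deposited, USP12 and USP33 were instead lower, by -0.02 and -0.14, with no call. USP8, which rescues the EGF receptor at endosomes, had a clear signal and no called difference, with -0.01 (95% confidence interval -0.39 to 0.37) in MDA-MB-231 cells and 0.16 (-0.26 to 0.59) in SKOV3 cells. Its partner STAM fell by 0.87 (adjusted p = 0.000105) and by 0.40 (adjusted p = 0.0174), and STAM2 was not called. USP20 lay in the floor band.

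The enzymes that recycle ubiquitin are USP5, its relative USP13, both of which handle unanchored chains, and USP14, which trims chains at the proteasome. USP13 was the only USP gene whose response differed between the lines, where 2.54% of all genes did, 1.3% with the more negative and 1.24% with the more positive response in MDA-MB-231. Its control arrays read 8.91, 8.76 and 8.95 in MDA-MB-231 cells and 7.88 and 7.93 in SKOV3 cells. With miR-365a-3p it read 7.78, 7.83 and 7.89 in MDA-MB-231 cells and 7.61, 7.85 and 7.75 in SKOV3 cells. Thus the MDA-MB-231 controls stood alone, and every array of the other 3 groups lay between 7.61 and 7.93. USP13 fell by 1.04 in MDA-MB-231 cells (standard error 0.067, adjusted p = 2.11e-05), 2.05-fold, and the difference of -0.17 in SKOV3 cells was not called (standard error 0.075, adjusted p = 0.212). The difference between these responses was -0.87 (95% confidence interval -1.10 to -0.64, adjusted p = 0.00331). It was called in 17 of 18 alternative fits and lost with a replicate block within each cell line (adjusted p = 0.0605). In that fit 0.249% of all genes were called with the more negative response in MDA-MB-231. On the values as deposited and after centring, USP13 was called lower in SKOV3 cells too.

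USP14 fell in both lines. It read 7.84, 7.86 and 7.83 on the MDA-MB-231 control arrays and 7.32, 7.39 and 7.40 with miR-365a-3p, and 7.78 and 7.84 against 7.48, 7.57 and 7.59 in SKOV3 cells. The groups did not overlap, and the treated MDA-MB-231 mean lay in the floor band. The falls were 0.47 (adjusted p = 3.61e-05) and 0.26 (adjusted p = 0.00224). USP5 was measured well above the floor band and not called, with -0.21 (95% confidence interval -0.49 to 0.07) and 0.08 (-0.23 to 0.40).

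USP4 and USP15, close relatives that act on the TGF-β receptor and on SMAD proteins, were called in opposite directions in MDA-MB-231 cells. USP4 fell by 0.27 (adjusted p = 0.0066) and USP15 rose by 0.31 (adjusted p = 0.0155). In SKOV3 cells neither was called, with -0.09 and 0.25. The rise of USP15 was absent on the values as deposited, with -0.01, while the fall of USP4 was called in all 19 fits. SART3, which brings both to the spliceosome, fell by 0.24 in MDA-MB-231 cells (adjusted p = 0.00113). USP39, a spliceosome protein without protease activity, read 10.03, 10.07 and 10.29 on the MDA-MB-231 control arrays and 9.03, 9.40 and 9.52 with miR-365a-3p. In SKOV3 cells, it read 9.05 and 9.23 against 8.76, 8.91 and 8.99. The treated MDA-MB-231 arrays overlapped the SKOV3 control arrays. USP39 fell by 0.81 in MDA-MB-231 cells (adjusted p = 0.00179), and -0.25 in SKOV3 cells was not called (adjusted p = 0.358). The difference between the lines was not called either (adjusted p = 0.239).

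USP30, which sits on the outer membrane of mitochondria, fell by 0.11 in MDA-MB-231 cells (adjusted p = 0.0225) to the floor band, and USP19, anchored in the endoplasmic reticulum, lay in that band throughout. USP18, which removes the ubiquitin-like protein ISG15, was not called, with 0.12 and 0.13. USP41, a near-identical copy of USP18, rose by 0.29 in MDA-MB-231 cells (adjusted p = 0.00404) and by 0.03 with no call on the values as deposited.

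Of the 17 genes in none of these lists, 3 fell and 1, USP41, rose in MDA-MB-231 cells, and 2 fell in SKOV3 cells. USP24, one of the largest members, read 9.02, 8.39 and 8.84 on the MDA-MB-231 control arrays and 7.52, 7.61 and 7.74 with miR-365a-3p. In SKOV3 cells, it read 9.004 and 8.87 against 7.61, 8.22 and 8.14. All treated arrays lay below the control arrays of their line, with replicate 1 lowest in both. USP24 fell by 1.13 (standard error 0.19, adjusted p = 0.0024) and by 0.95 (standard error 0.21, adjusted p = 0.0186), and the SKOV3 call was lost in 4 of 19 fits. USP34, another very large member, which acts on axin in Wnt signalling, read 8.24, 7.98 and 8.18 against 7.62, 7.57 and 7.59 in MDA-MB-231 cells and 8.18 and 8.41 against 7.66, 7.73 and 7.83 in SKOV3 cells. It fell to a like extent in both, by 0.54 (adjusted p = 0.00132) and by 0.56 (adjusted p = 0.00401), with a difference between the lines of 0.02. USP36, a nucleolar enzyme, fell by 0.22 in MDA-MB-231 cells (adjusted p = 0.00899) and had -0.18 in SKOV3 cells (adjusted p = 0.0561).

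No change was called in either line for 23 of the 52 genes. Of these, 14 lay in the floor band in all 4 groups, and 9 stood above it in some group. USP38 was measured well above the floor band in all groups, with differences of -0.39 (adjusted p = 0.251) and -0.0046 (adjusted p = 0.997), and its treated SKOV3 arrays spread from 8.67 to 9.52. USP48 was also measured above the floor band, with -0.05 and 0.06. Among the falls, the control mean lay above the floor band and the treated mean within it for 7 genes of MDA-MB-231 and 2 of SKOV3.

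**Figure D3:**
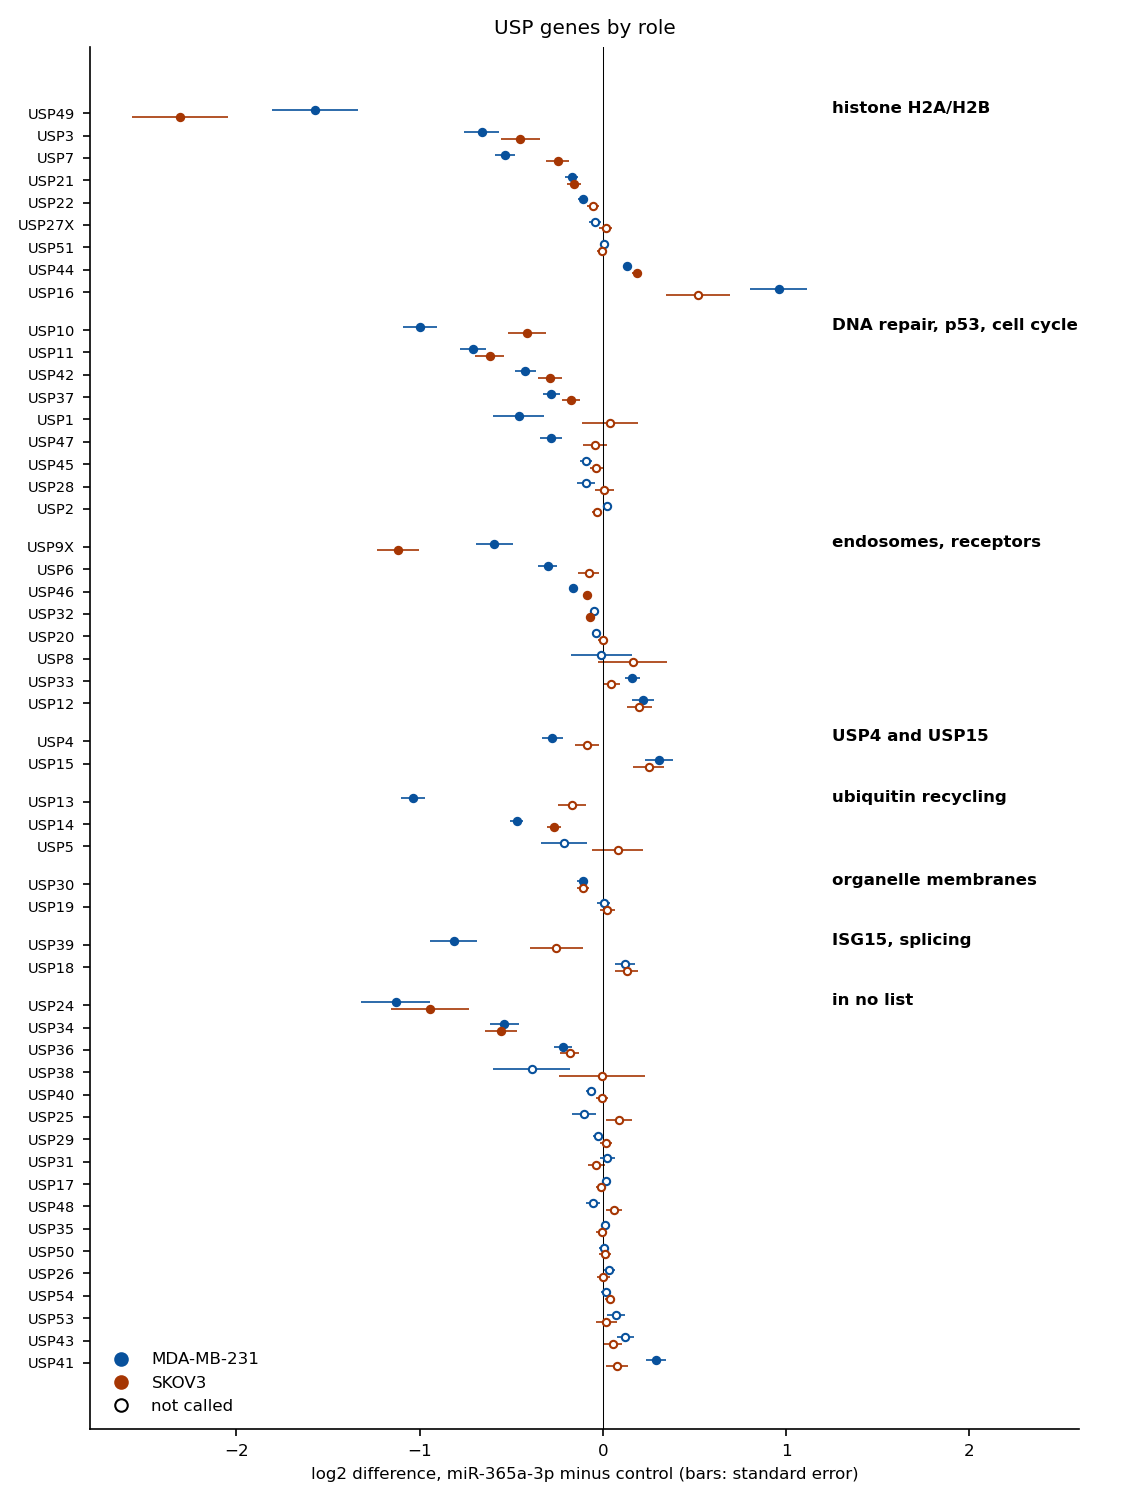
Log2 difference between miR-365a-3p and control arrays of the 52 USP genes, grouped by role and ordered by the mean of both cell lines, in MDA-MB-231 cells (blue) and SKOV3 cells (orange), with standard errors from limma as bars and open circles for genes not called. The points farthest to the left are those of USP49 (-1.57 and -2.31), and those farthest to the right are those of USP16 (0.96 and 0.52).

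With control miRNA the lines themselves differed in some USP genes. Among these arrays, 8 USP genes were higher in MDA-MB-231 than in SKOV3 cells and 2 were lower, where 7.76% of all genes were higher and 8.34% lower. USP39 was higher by 0.99 (adjusted p = 0.00158), USP13 by 0.96 (adjusted p = 4.52e-05), USP10 by 0.73 (adjusted p = 0.00135) and USP5 by 0.48 (adjusted p = 0.0485). USP7, USP4, USP33 and USP46 were higher by between 0.08 and 0.23. USP9X was lower in MDA-MB-231 cells by 0.79 on the log2 scale, at 8.23 against 9.02 (adjusted p = 0.0014), and USP48 was at 7.69 against 7.89 (adjusted p = 0.0152). USP39, USP13, USP10 and USP9X kept the call in all 16 alternative fits. The other calls were lost with either SKOV3 control array left out, which leaves a single one, and fewer of all genes were called there too. These comparisons share their control arrays with the responses, so the values stand side by side and no relation between them is given.

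**Figure D4:**
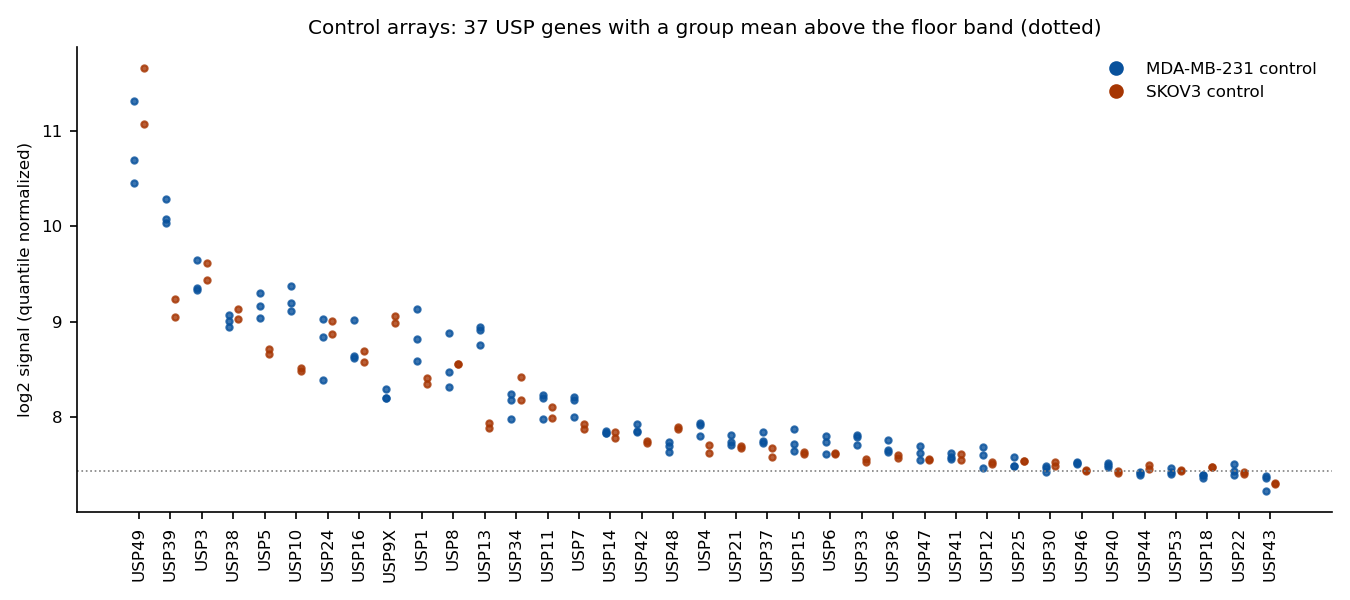
Log2 signal after quantile normalization on the control arrays of MDA-MB-231 (blue, 3 arrays) and SKOV3 cells (orange, 2 arrays) for the 37 USP genes with a group mean above the floor band (dotted at 7.43). Genes are ordered by their control signal for layout only, since probes of different genes are not comparable, and the lines are farthest apart for USP39, USP13, USP9X and USP10.

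Deubiquitinases of other families and related proteases, with COPS5 and USPL1 counted among the latter, rose about as often as they fell within each line. Of 34 measured genes, 7 rose and 7 fell in MDA-MB-231 (against 14.4% and 11.7% of all genes), and 5 rose and 4 fell in SKOV3 (against 7.25% and 7.11% of all genes). Both lines shared 5 rises, 14.7% of these genes against 5.76% of all, and 2 falls, 5.88% against 5.39%. The shared rises were those of COPS5, the catalytic subunit of the COP9 signalosome (1.13, adjusted p = 6.62e-05, and 0.85, adjusted p = 0.000982), of PSMD14, the deubiquitinase of the proteasome lid (0.55, adjusted p = 0.0023, and 0.82, adjusted p = 0.00114), of UCHL3 (0.73 and 0.93), OTUD6B (0.87 and 0.58) and FAM105B, now OTULIN, which cuts linear chains (0.28 and 0.48). COPS5 read 10.27, 10.33 and 10.46 on the MDA-MB-231 control arrays and 11.54, 11.57 and 11.34 with miR-365a-3p, and 11.07 and 10.94 against 12.04, 11.79 and 11.75 in SKOV3 cells. COPS5 and PSMD14 kept both calls in all 19 fits. The call of OTUD6B in SKOV3 was lost in 12 of 19 fits (adjusted p up to 0.223), and those of UCHL3 in 8 in MDA-MB-231 and 7 in SKOV3. FAM105B was lower in MDA-MB-231 cells on the values as deposited, with -0.09, and after centring, with -0.06. The shared falls were those of FAM63B, now MINDY2, which trims K48-linked chains (-0.60 and -0.33), and of VCPIP1, a partner of the ATPase VCP (-0.41 and -0.33). Both SKOV3 calls were lost in 6 of 19 fits (adjusted p up to 0.162 and 0.139). Of 11 partners of USPs, 4 fell and 1 rose in MDA-MB-231 (against 11.7% and 14.4% of all genes), while 3 fell and 1 rose in SKOV3 (against 7.11% and 7.25% of all genes). The shared ones were ENY2, GMPS and STAM, described above, and DMWD, a relative of WDR20, which fell by 0.36 (adjusted p = 0.0025) and by 0.38 (adjusted p = 0.00671).

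How far the rises depended on scaling is seen gene by gene. USP49, USP9X, USP13, USP3 and USP21 were lower and called in MDA-MB-231 cells on all 4 scalings, and USP16 was higher and called on all 4. USP22 lost its call after cyclic loess. USP12, USP15 and USP33 changed sign between quantile normalization and the values as deposited.

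**Figure D5:**
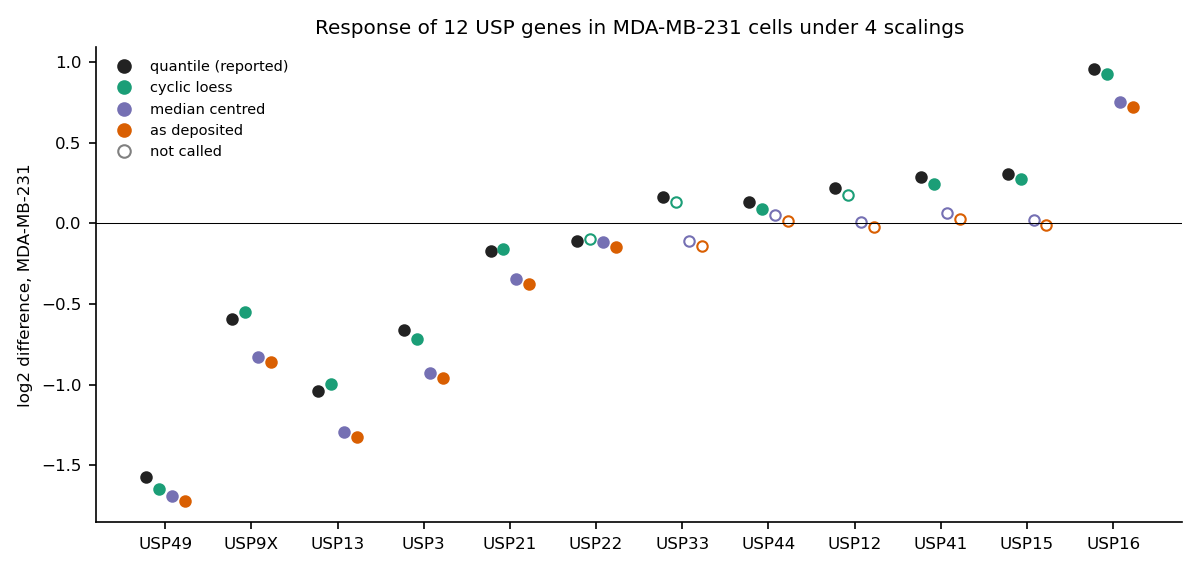
Log2 difference between miR-365a-3p and control arrays in MDA-MB-231 cells for 12 USP genes on 4 scalings, as quantile normalized (black), after cyclic loess (green), with each array centred on its median (violet) and as deposited (orange), with open circles where the difference was not called. USP16 is the only rise that keeps its call throughout, and USP33 falls to -0.14 as deposited.

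Promoter sequences were looked at for what the USP genes share beyond their name. RefSeq windows of 300 bases around the start, most of each before it, on GRCh38.p14, were matched for 39 of the 52 genes and for 27305 genes in all. The first windows of USP genes had a mean of 67.7% G and C, against 57.2% over all genes. A gene was counted for a motif where any of its windows held it, and the number of windows per gene was not taken into account. Motifs were searched as exact letters on both strands, and GGGCGG, the box bound by SP1, was in 87.2% of the USP genes and 48.3% of all genes. The ETS motif CCGGAAG was in 33.3% and 12.2%, the NFY motif CCAAT in 30.8% and 39.7%, and the YY1 motif in 7.69% and 1.46%. The NRF1 motif and the CRE letters TGACGTCA were in 0 of the 39 genes and in 1.52% and 2.25% of all genes. The SP1 box was in 84.2% of the 19 genes that fell in either line and 93.8% of the 16 called in neither, and the ETS motif in 31.6% and 31.2%. CCAAT was in 42.1% of the genes that fell and 25% of those called in neither, and the YY1 motif in 10.5% and 0%. In the 4 genes that rose in either line, the SP1 box was in 75%, the ETS motif in 50%, CCAAT in 0% and the YY1 motif in 25%. None of these shares was tested. A match is a string of letters and not a bound site. A window of USP49, with the largest fall, and that of USP16, with the largest rise, are shown with matches in capitals. The first of 2 windows of USP49 lies at chr6:41895326-41895625 on the minus strand and holds 4 SP1 boxes and 1 CCAAT, with 68.7% G and C. The second, at chr6:41895089-41895388, holds 2 SP1 boxes and 0 CCAAT. That of USP16 lies at chr21:29024418-29024717 on the plus strand and holds 1 ETS motif, with 56.3% G and C.

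USP49 promoter window: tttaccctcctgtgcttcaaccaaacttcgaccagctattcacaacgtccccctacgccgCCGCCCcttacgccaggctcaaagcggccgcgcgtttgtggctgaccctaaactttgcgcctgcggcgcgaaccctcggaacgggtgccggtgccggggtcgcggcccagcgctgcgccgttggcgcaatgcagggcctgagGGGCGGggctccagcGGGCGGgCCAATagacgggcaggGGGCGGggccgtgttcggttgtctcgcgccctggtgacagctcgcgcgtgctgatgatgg

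USP16 promoter window: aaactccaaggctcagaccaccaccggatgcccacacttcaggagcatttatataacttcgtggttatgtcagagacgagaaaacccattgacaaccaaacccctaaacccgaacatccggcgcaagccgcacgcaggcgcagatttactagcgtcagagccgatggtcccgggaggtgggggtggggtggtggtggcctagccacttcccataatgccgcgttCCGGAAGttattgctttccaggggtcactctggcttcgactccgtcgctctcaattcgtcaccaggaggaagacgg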

How the data were processed

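The authors hybridized biotin-labelled cRNA to HumanHT-12 v4 arrays, normalized the data by quantiles with lumi and deposited values in the range of a log2 scale, 1 per symbol on each array. Whether the transformation was log2 or variance-stabilizing, how probes were combined and whether background was subtracted are not given in the sources used here. All 11 arrays were used, no 2 were identical, and their number limits the precision. The deposited columns did not share a distribution, so quantile normalization over the 11 arrays was applied (limma 3.58.1, R 4.3.3). A model with 4 group means was fitted to all 31325 genes (lmFit, eBayes), with contrasts for the response in each line, their difference and the controls of the lines, and a gene was called at a Benjamini-Hochberg adjusted p under 0.05 from limma. For single genes, an exact two-sided permutation of the treatment within lines (200 arrangements, smallest p 0.005) was run on the mean response. It gave 0.005 for USP3, USP22, USP49, USP9X, USP24 and USP34 and 0.01 for USP13, USP16 and USP39, and within 1 line no exact p below 0.1 is possible. For USP41, USP47 and USP1 the permutation gave 0.03, 0.05 and 0.145. These p-values are unadjusted, and most of these genes were chosen for their responses in the same data. Groups that do not overlap, with 1 direction in both lines, put a gene at or close to the smallest p. Of all genes, 10.3% were so separated downward and 13.3% upward.

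Members, role lists and families were chosen with earlier results of these data known. The genes named are USP3 and USP22, the 12 called USP genes with the most negative and the 12 with the most positive mean response, the 5 with the highest mean signal, those with a called difference between lines, and up to 6 other deubiquitinases, related proteases or partners per direction called in both lines. The other USP genes, and partners beside them, were named after their values were seen. Alternatives were the deposited values, median centring, cyclic loess, a filter on dim genes, each line alone, replicate blocks, an intensity trend with robust hyperparameters and each array left out. In simulated data with 200 changes of 1 log2 unit among 31325 genes, 94% were recovered in MDA-MB-231 and 91.5% in SKOV3 cells, with 10 and 17 false calls. The simulated noise was independent and no array was shifted. These figures therefore check the fit and do not carry over to smaller changes or to the shifts seen between these arrays. Within a line, treated and control arrays of the same replicate number showed little correlation of deviations (-0.125 to 0.232 over 6853 genes). With so few arrays, this check cannot exclude pairing. Across lines, miR-365a-3p arrays of the same number did correlate (0.695, 0.311 and 0.344). Protein length, transcripts and seed sites were not analysed here.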

Additional observations from a re-analysis of the deposited data

Results flagged for a closer look

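The response of USP13 differed between the cell lines by -0.87 on the log2 scale (MDA-MB-231 minus SKOV3, adjusted p = 0.00331 from the interaction contrast of limma), with a mean of 8.87 on the control arrays of MDA-MB-231 cells and of 7.84, 7.74 and 7.91 in MDA-MB-231 cells with miR-365a-3p, SKOV3 cells with miR-365a-3p and SKOV3 controls. Leaving out any single array kept the adjusted p at or below 0.0262, and with a replicate block within each cell line it was 0.0605 and the difference was not called. From the SKOV3 control mean, a fall as large as that of MDA-MB-231 cells would end below the lowest signals of the arrays. The part of this limit in the difference was not tested.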

How the results depend on the processing

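Of 28 calls of USP genes in MDA-MB-231 cells, 19 were kept in all alternatives that tested the gene, and of 15 in SKOV3 cells 5 were. Falls in MDA-MB-231 cells numbered from 18 to 27 over the alternatives, where 9.5% to 23.3% of the genes tested fell. Rises there were 6 after quantile normalization, 1 on the deposited values, 1 after centring on the median and 3 to 7 with 1 array left out. Falls in SKOV3 cells were 14, but 9 with each line fitted alone and 7 without miR-365a-3p replicate 1 of SKOV3 (6.28% of all genes). They were fewer still without either SKOV3 control array, where falls over all genes were also fewer. The 1 rise in SKOV3 cells became 0 on the deposited values, 0 after centring, 2 among genes above the median signal, 2 with each line alone and 1 to 2 with 1 array left out. Counting only the more negative response in MDA-MB-231, the 1 difference between lines became 2 after cyclic loess, 2 among genes above the median signal (USP10 and USP13) and 1 to 3 with 1 array left out. Between controls, the 2 genes lower in MDA-MB-231 cells became 5 on the deposited values, 5 after centring, 1 with an intensity trend and 1 to 3 with 1 array left out, and the 8 higher became 3, 5 and, with 1 array left out, 3 to 8. The shares of all genes called moved too. In MDA-MB-231 cells 14.4% rose after quantile normalization, 7.26% as deposited and 10.8% after centring. In SKOV3 cells 7.11% fell, and 4.94% with each line fitted alone. Between controls 8.34% were lower, 12.3% as deposited and 11.5% after centring, while 7.76%, 6.95% and 7.69% were higher. The fewer calls with 1 array left out or each line alone come with fewer arrays in the fit, and for the other changes the cause was not tested. On the deposited values the differences in MDA-MB-231 cells turned to -0.143 for USP33, -0.0212 for USP12, -0.0114 for USP15 and -0.0928 for FAM105B, and after centring to -0.11 for USP33 and -0.0605 for FAM105B. No other call of a named gene changed direction. With the replicate number as a block within each line, falls in SKOV3 cells were 7 and rises 4. Differences between lines with the more negative response in MDA-MB-231 were 0 (6 at an unadjusted p under 0.05 by limma). Of all genes, 4.83% fell and 5.05% rose in SKOV3 cells in that fit. The more negative response in MDA-MB-231 was called for 0.249% of all genes there, against 1.3% in the main fit. The check of pairing, made on few arrays, could not decide whether such a block holds. With a block shared by the lines, chosen after seeing that miR-365a-3p arrays of 1 number deviated together across lines, rises in SKOV3 cells were 3. Single arrays ended calls in MDA-MB-231 cells of USP1, USP22, USP30, USP12, USP15 and USP33, and of UCHL3 and ENY2 among the other genes. Signals in the floor band limit what can be measured for 15 of the 52 genes.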
